A study of Mus musculus with 2 samples.

Results

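The DNA replication genes of S phase are a list of 38 mouse genes whose products license, open, copy and protect DNA when a cell duplicates its genome. All 38 were taken by name from a list of known S phase genes, out of the 27998 genes in the count matrices. Each of the 38 had at least 1 unique molecular identifier (UMI, the tag that counts 1 captured mRNA molecule) in both libraries. Single-cell RNA libraries were made from the bone marrow of naive mice on the C57BL/6 background, with 3 mice pooled for each library and 1 library per group. The marrow group held sorted CD45+ CD3- Ly6G- cells of C57BL/6 mice. The Car1-GFP group held sorted CD45+ cells expressing GFP in Car1-GFP reporter mice. Car1 encodes a carbonic anhydrase of red cell precursors. With pooled mice and no second library, no difference has a replicate check, so no test was made and every interval covers counting error only.

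After filtering, the marrow library held 6268 cells and 8303633 UMIs, with a median of 1031 UMIs per cell. The Car1-GFP library held 2400 cells and 42795219 UMIs, with a median of 15512.5 per cell. A count of 0 therefore allowed a level of up to 0.361 UMIs per 1000000 (CPM) in marrow and 0.0701 CPM in Car1-GFP. The kept cells of the libraries shared 13 cell barcodes. To compare cells of unequal depth, each cell was thinned at random to a fixed number of UMIs. The number was 1000 within marrow and across libraries, which left 3271 marrow cells, and 4500 within Car1-GFP, which left all 2400 cells. By markers read against marrow cells, 2299 of the 2400 Car1-GFP cells fell in clusters named erythroid-like. One of these, cluster 0 with 651 cells, differed from the other Car1-GFP clusters by granulocyte and progenitor genes led by S100a8, S100a9, Ngp and Camp, and it lost its name under some other clusterings and filters. Its Klf1, an erythroid factor, stood at 280 CPM, and its S100a8 at 346 CPM. S100a8, a granulocyte gene, had a UMI in 931 of these 2299 cells (40.5%). Hbb-bs, an adult globin, had one in 459 of 5996 marrow cells outside the erythroid-like class (7.66%). These shares are of cells that were not thinned, with medians of 15785 and 1005 UMIs per cell, so they cannot be compared. The first also includes cluster 0.

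Before S phase, CDC6 helps to load the ring of MCM2 to MCM7 proteins onto replication origins, and geminin (Gmnn) blocks loading once S phase has begun. CDC45 and the GINS complex turn the loaded ring into an active helicase. DNA polymerases with the sliding clamp PCNA then copy both strands, ribonucleotide reductase supplies the nucleotides, and chaperones pack the new DNA into chromatin. Transcription of many of these genes is driven by E2F factors at the start of S phase. Red cell precursors divide while they fill with hemoglobin and leave the cycle before they lose their nucleus, whereas granulocytes leave it as they mature.

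Promoters of 28 of the 38 genes were found in RefSeq windows (mouse build GRCm38.p6) that run from 250 bases before to 50 after an annotated start. The windows were searched on both strands for the E2F-like letters TTTCCCGC, TTTCGCGC, TTTGCCGC and TTTGGCGC. The letters stood in 13 of the 28 genes (46.4%), against 704 of 27025 genes with a window (2.60%). In 49 further replication genes, 41 had a window and 11 of these held the letters (26.8%), and in 23 genes of mitosis the count was 1 of 21 (4.76%). The CCAAT box letters, CCAAT, stood in 20 of the 28 replication genes (71.4%) against 41.1% of all genes. The letters TTTGAA of the cell cycle homology region stood in 5 of the 28 (17.9%) against 20.2% of all genes and 15 of 21 mitosis genes (71.4%). The GATA letters AGATAA stood in 2 of the 28 (7.14%) against 12.7% of all genes. Matches of different words could overlap, as in Mcm7, where the last C of an E2F-like match begins a CCAAT. The median GC content was 58.7% in the members' windows and 52.7% in all windows. Matches describe letters in a window and are not evidence of binding.

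The E2F-like letters occurred more than once in 4 members, all of them subunits of the MCM helicase. Overlapping matches were counted apart, so those in Mcm5 form a single stretch of letters. Of the other MCM subunits, Mcm2 held 0 matches and Mcm4 had no window. Their windows are shown because this one complex held every repeated match, and Rrm2, the member that varied most over Car1-GFP cells relative to its mean (variance over mean 2.13 at 4500 UMIs), is shown as a window without a match. The strand is that of the gene, and capitals mark the E2F-like letters on either strand.
Mcm3, chr1:20820263-20820562, minus strand: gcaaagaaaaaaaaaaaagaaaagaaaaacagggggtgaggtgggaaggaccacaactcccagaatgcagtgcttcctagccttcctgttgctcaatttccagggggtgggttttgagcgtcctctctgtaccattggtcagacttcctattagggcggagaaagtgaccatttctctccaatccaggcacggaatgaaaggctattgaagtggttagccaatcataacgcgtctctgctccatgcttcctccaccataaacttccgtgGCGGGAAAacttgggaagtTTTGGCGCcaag
Mcm5, chr8:75109259-75109558, plus strand: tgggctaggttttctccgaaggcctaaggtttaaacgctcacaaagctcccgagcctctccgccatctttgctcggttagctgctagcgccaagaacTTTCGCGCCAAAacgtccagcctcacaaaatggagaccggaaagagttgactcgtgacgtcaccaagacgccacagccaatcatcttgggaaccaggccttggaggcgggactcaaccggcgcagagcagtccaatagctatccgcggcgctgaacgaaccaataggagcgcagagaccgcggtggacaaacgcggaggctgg
Mcm6, chr1:128359656-128359955, minus strand: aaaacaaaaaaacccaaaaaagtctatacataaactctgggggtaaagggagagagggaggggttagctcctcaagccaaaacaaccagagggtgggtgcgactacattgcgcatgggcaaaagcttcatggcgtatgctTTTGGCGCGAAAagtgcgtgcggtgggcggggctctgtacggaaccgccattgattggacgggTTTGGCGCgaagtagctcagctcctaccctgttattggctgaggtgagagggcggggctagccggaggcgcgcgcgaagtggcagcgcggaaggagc
Mcm7, second annotated start, chr5:138171834-138172133, minus strand: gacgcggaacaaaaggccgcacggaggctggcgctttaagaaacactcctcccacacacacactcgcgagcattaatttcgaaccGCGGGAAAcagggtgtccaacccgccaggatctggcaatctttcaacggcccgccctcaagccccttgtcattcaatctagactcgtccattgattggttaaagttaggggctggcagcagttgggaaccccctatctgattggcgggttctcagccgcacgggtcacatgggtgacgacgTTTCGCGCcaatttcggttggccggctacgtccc
Rrm2, chr12:24708004-24708303, plus strand: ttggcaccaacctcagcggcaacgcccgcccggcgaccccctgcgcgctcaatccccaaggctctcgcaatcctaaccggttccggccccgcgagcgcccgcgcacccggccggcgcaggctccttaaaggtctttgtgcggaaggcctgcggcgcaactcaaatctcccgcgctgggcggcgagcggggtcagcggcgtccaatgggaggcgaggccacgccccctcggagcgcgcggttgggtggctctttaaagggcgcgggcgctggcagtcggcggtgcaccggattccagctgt
In Mcm3 the matches began 19 and 38 bases after the start. In Mcm5 they began 153 and 149 bases before the start, on opposite strands and overlapping. In Mcm6 they began 110, 106 and 47 bases before it, and those at 110 and 106 overlap on opposite strands. The remaining 9 members with a match, among them Cdc6, Dtl, Pola1 and Uhrf1, held 1 each, and 15 members with a window held none.

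Between the libraries, the replication genes were higher in Car1-GFP cells as a sum, but not gene for gene. Their summed level was 4285 CPM in Car1-GFP (183380 UMIs) and 2586 CPM in marrow (21471 UMIs). The log2 ratio was 0.73 (95% counting interval 0.71 to 0.75), or 1.66-fold. At a cutoff of 2-fold, 16 of 38 members were higher, against 22.2% of all 12076 measured genes. Only 3 members were lower at that cutoff, against 32.7% of all measured genes. The median log2 ratio was 0.67 over the members and -0.23 over all measured genes. The other replication genes had 21 of 49 higher and 4 lower, and the mitosis genes 5 of 23 higher and 2 lower.

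The helicase genes stood at 959.5 CPM in Car1-GFP and 505.8 CPM in marrow, and 3 of 8 were at least 2-fold higher. Mcm2 was at 125 and 47.8 CPM, a log2 ratio of 1.39 (1.24 to 1.54). Mcm7 was at 226 and 96.3 CPM, a log2 ratio of 1.23 (1.13 to 1.34). Gins2, a GINS subunit, had the largest ratio of the group, with 86.9 and 29.1 CPM and a log2 ratio of 1.58. The other MCM subunits, which work in a ring of equal parts, had ratios of unequal size. Mcm6 was at 167 and 85.4 CPM (0.97), Mcm3 at 127 and 83.1 CPM (0.61), Mcm5 at 131 and 92.5 CPM (0.50) and Mcm4 at 66.7 and 51.5 CPM (0.37). Cdc45 was at 30.6 and 19.99 CPM (0.61).

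Licensing and entry genes split in direction. Cdc6 was at 55.8 CPM in Car1-GFP and 19.8 CPM in marrow, a log2 ratio of 1.5, and Gmnn at 265 and 129 CPM, a log2 ratio of 1.04. Dtl, part of a ligase that removes licensing factors in S phase, was at 71.1 and 45.9 CPM (0.63). Ccne2, cyclin E2, went the other way, with 34.9 CPM in Car1-GFP and 88.2 CPM in marrow, a log2 ratio of -1.34 (-1.47 to -1.21). Cyclin E1, which is not a member, was among the 6 further replication genes with the largest ratios, at a log2 ratio of 2.49 for Ccne1. The other 5 were Rfc4 at 2.63, Rpa2 at 2.43, Tyms at 2.39, Pold2 at 2.27 and Dut at 2.25.

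Among polymerase and clamp genes, 4 of 7 were at least 2-fold higher. Dscc1, part of an alternative clamp loader, had the largest ratio of all members, with 28.7 and 5.90 CPM and a log2 ratio of 2.28 (1.87 to 2.73). Prim1, the primase subunit that starts each new strand, was at 71.5 and 19.4 CPM (1.88). Fen1, the nuclease that trims Okazaki fragments, was at 145 and 41.9 CPM (1.79). Rfc2, a clamp loader subunit, was at 209 and 89.5 CPM (1.22), and Pold3 at 40.2 and 24.7 CPM (0.70). The clamp itself, Pcna, was at 199 and 188 CPM, a log2 ratio of 0.08 (-0.0003 to 0.16). Pola1, the catalytic subunit that works with primase, was lower, at 28.6 and 44.0 CPM (-0.62). The subunits of the reductase were both higher, Rrm1 with 146 and 70.3 CPM (1.05) and Rrm2 with 290 and 205 CPM (0.50).

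Chromatin genes lay on both sides of 0. Slbp, which binds the stem-loop of histone mRNAs, had the highest level of any member, at 434 and 172 CPM (1.33). Chaf1b, a chromatin assembly factor subunit, was at 60.4 and 14.2 CPM (2.09), and Nasp, a histone chaperone, at 205 and 67.9 CPM (1.60). Wdr76 was more than 2-fold lower, at 37.0 and 88.6 CPM, a log2 ratio of -1.26 (-1.39 to -1.13). Inside the 2-fold range were Hells, a chromatin remodeller, with 50.8 and 97.3 CPM (-0.94), Atad2 with 51.1 and 89.0 CPM (-0.80) and Uhrf1, which helps to maintain DNA methylation, with 72.6 and 106 CPM (-0.55). Cdca7, which works with Hells, was at 89.2 and 73.1 CPM (0.29), and Ubr7 at 30.03 and 21.7 CPM (0.47).

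Repair genes were led by Ung, which removes uracil from DNA, at 64.0 and 15.2 CPM (2.08; 1.82 to 2.34). Tipin, a fork protection factor, was at 343 and 108 CPM (1.66), Exo1 at 20.6 and 9.75 CPM (1.08) and Rad51ap1 at 67.0 and 34.8 CPM (0.95). Clspn, Usp1 and Blm differed little, with log2 ratios of 0.20, 0.11 and 0.06. Brip1, a helicase of crosslink repair, had the lowest level of any member in Car1-GFP, at 7.197 and 18.5 CPM (-1.37). Scaling by edgeR's TMM factors shifted the ratios of all genes up by 0.389 and left 0 members 2-fold lower, with 21 higher. With cells weighted equally at 1000 UMIs the counts moved the other way, to 12 members higher and 4 lower. The shares of all measured genes past 2-fold were not counted in either setting, so these counts have no background beside them. The 7 members with a ratio below 0 on the scale of total UMIs were also below 0 with TMM factors. The libraries differ at once in sort, mouse line and depth, which cannot be told apart.

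**Figure D1:**
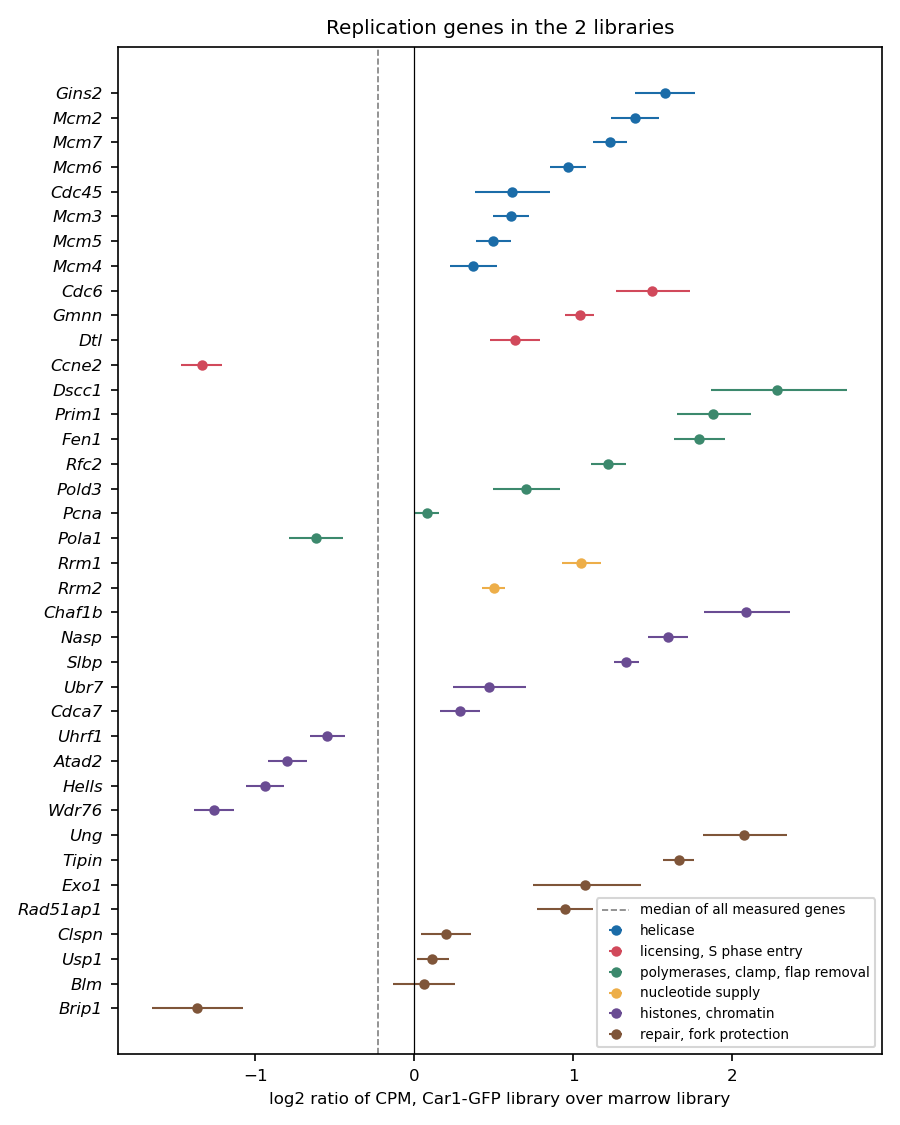
Log2 ratio of CPM in the Car1-GFP library over the marrow library for each of the 38 genes (points), with 95% counting intervals (bars), coloured by role; the dashed line is the median of all measured genes at -0.23. Dscc1 lies highest at 2.28 and Brip1 lowest at -1.37, and 31 of 38 genes lie above 0.

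Within marrow, the summed level differed several-fold between cell classes. Cells were clustered without cell cycle genes into 15 clusters, of which 13 could be named from markers as 12 classes, all called "-like" because the names rest on markers alone. Clusters of 669 cells (led by Sirpb1c and Wfdc17) and 34 cells stayed unnamed. The stem-and-multipotent-like cluster of 462 cells was led by Pf4, a megakaryocyte marker, and Dntt, a lymphoid-primed marker. Under a finer clustering no cluster took the stem name. An unnamed cluster of 349 cells and a lymphoid-primed-named one of 172 cells appeared instead. Results for the stem-like class thus cover a mixture of progenitors. The cluster named late-erythroid-like, of 272 cells, also held cells with little or no globin. A finer clustering parted erythroid-like marrow cells into 193 progenitor-named and 79 late-named cells. The late-erythroid-like name thus covers earlier and late cells here. Pooled over all cells of a class, the 38 genes reached 4494 CPM in late-erythroid-like cells and 3682 CPM in B-lineage-like cells. Granulocyte-monocyte-progenitor-like (GMP-like) cells followed with 3212 CPM and stem-and-multipotent-like cells with 3125 CPM. Classical-monocyte-like cells stood at 2944 CPM, basophil-like at 2687, NK-and-innate-lymphoid-like at 2429 and macrophage-like at 2299 CPM. Immature-neutrophil-like cells stood at 2002 CPM and plasmacytoid-dendritic-like cells at 1715 CPM. The lowest classes were conventional-dendritic-like cells at 974 CPM and maturing-neutrophil-like cells at 683 CPM. The counting intervals of the GMP-like class (3127 to 3298) and the stem-like class (2988 to 3265) overlapped, as did those of the basophil-like, NK-like and macrophage-like classes.

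At an equal depth of 1000 UMIs, late-erythroid-like cells held 4.85 ± 3.20 UMIs of the 38 genes per cell (mean ± SD over 247 cells). B-lineage-like cells held 3.51, macrophage-like 3.43, stem-like 3.40, classical-monocyte-like 3.38, NK-like 3.26, plasmacytoid-dendritic-like 3.24 and basophil-like 3.07, which lie close to one another. GMP-like cells held 3.23 ± 2.26 (713 cells), among these and not above most of them as in the pooled order. Lower levels were found in immature-neutrophil-like cells, 2.23 ± 2.18 (840 cells), conventional-dendritic-like cells, 1.23, and maturing-neutrophil-like cells, 1.02 ± 1.59 (121 cells). The SD over cells was larger than the step between neighbouring classes. Only cells with 1000 UMIs or more enter that comparison, and in most classes these cells held more replication mRNA than the shallower ones. The gap was wide in plasmacytoid-dendritic-like cells, with 3169 CPM (2872 to 3487) in 89 deep cells and 1119 CPM (1006 to 1241) in 429 shallow cells. Their mitosis genes stood at 4046 and 542 CPM. In late-erythroid-like, GMP-like and B-lineage-like cells the order was the reverse, with 4422 CPM in deep and 7396 CPM in 25 shallow late-erythroid-like cells. Whether depth is itself a part of these differences was not tested.

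**Figure D2:**
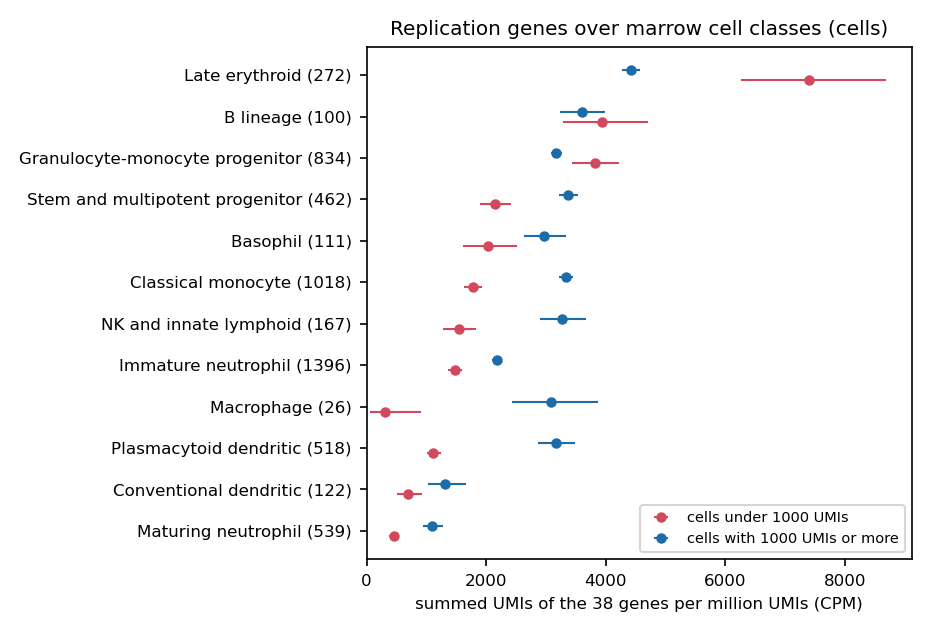
Summed level of the 38 genes in CPM for each marker-named class of marrow cells (number of cells in parentheses), for cells under 1000 UMIs and for cells with 1000 or more; bars are 95% counting intervals. Late erythroid is highest and maturing neutrophil lowest in cells of 1000 UMIs or more, and plasmacytoid dendritic cells stand at 1119 and 3169 CPM.

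Single members did not all follow the sum. The late-erythroid-like class was highest for 18 of the 38 genes, the B-lineage-like class for 10, the macrophage-like class of only 26 cells for 5, and the stem-like class for 3, Chaf1b, Hells and Ung. How often genes in general were highest in each class was not counted, so these counts have no background. Several of these ranks rest on few UMIs, with 4 each for Brip1, Dscc1 and Prim1 in B-lineage-like cells and 3 each for Gins2 and Ubr7 in macrophage-like cells, and their intervals are wide. Mcm5 ran from 156 CPM in late-erythroid-like and 142 CPM in GMP-like cells to 12.4 CPM in maturing-neutrophil-like cells. Rrm2 had another order, with 355 CPM in late-erythroid-like, 296 CPM in immature-neutrophil-like, 219 CPM in GMP-like and 82.0 CPM in stem-like cells. Hells was highest in stem-like cells at 180 CPM (148 to 216) and stood at 158 CPM in GMP-like and 126 CPM in late-erythroid-like cells. Ung was at 39.4 CPM in stem-like and 18.0 CPM in late-erythroid-like cells, with 0 UMIs in maturing-neutrophil-like cells (a count of 0 allows up to 6.21 CPM, or 3 counts).

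Along the granulocyte classes the level was higher in GMP-like than in maturing-neutrophil-like cells for every measured member. The sums of 3212 and 683 CPM gave a log2 ratio of 2.23 (2.07 to 2.40). Of 37 measured members, 36 were at least 2-fold higher in GMP-like cells and 0 lower, where 45.2% of all 7243 measured genes were higher and 9.35% lower. The filter for measured genes adds the UMIs of both classes. The members had 5441 UMIs in GMP-like and 330 in maturing-neutrophil-like cells, so they could pass through GMP-like cells alone. Ung and Cdc6 did so and count among the 36 on a bound. The count of 36 is therefore not separate evidence beside the sums. The median log2 ratio was 2.28 over members and 0.87 over all measured genes. The exception at the cutoff was Cdc45, with a log2 ratio of 0.997 (35 and 5 UMIs), and its interval, like those of Brip1 and Exo1, included 0. Ung and Cdc6 had 0 UMIs in maturing-neutrophil-like cells and were set against a floor of 3 counts, so they were at least 1.85 and 2.03 higher on the log2 scale against that floor. The helicase genes showed the largest group ratio, at 698.9 and 107.7 CPM (2.70). Gins2 had 75 and 1 UMIs, so its log2 ratio of 4.42 had an interval from 1.90 to 9.74. Wdr76 had 191 and 4 UMIs (3.77) and Mcm5 240 and 6 UMIs (3.51). The mitosis genes had a smaller sum ratio of 1.30, with 15 of 23 higher.

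Pooled over cells of all depths, stem-like and GMP-like cells were close in sum, with a log2 ratio of -0.04 (-0.11 to 0.03). Of 37 measured members 0 were 2-fold higher in stem-like cells and 2 were lower, while 12.7% of all measured genes were higher and 5.83% lower. The 2 were Rrm2, with 52 and 371 UMIs and a log2 ratio of -1.42 (-1.86 to -0.995), and Cdc6, with 7 and 43 UMIs and a log2 ratio of -1.20 (-2.60 to -0.04). Rrm1, the partner subunit of Rrm2, was not among them.

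Compared with all other marrow cells, late-erythroid-like cells held 4494 against 2373 CPM, a log2 ratio of 0.92 (0.87 to 0.97). Of 38 members 18 were at least 2-fold higher and 0 lower, against 17.2% and 22.4% of all 10429 measured genes. Cdc6 was at 64.8 and 14.7 CPM, a log2 ratio of 2.14 (1.64 to 2.62), and Fen1 at 112 and 34.1 CPM (1.71). Mcm7 was at 222 and 82.3 CPM (1.43), Mcm2 at 108 and 41.1 CPM (1.39) and Rrm1 at 157 and 60.6 CPM (1.37). Brip1 alone was below 0, at 14.4 and 19.0 CPM and a log2 ratio of -0.40 (-1.39 to 0.45). The median over members was 0.96, and 0.10 over all measured genes. At equal depth the log2 ratio was 0.79 at 1000 UMIs and 1.33 at 590 UMIs, a depth that every cell reached.

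When erythroid-like cells of both libraries were compared, the sums were close, and the members were past 2-fold about as often as genes in general or less. Car1-GFP erythroid-like cells held 4324 CPM and marrow late-erythroid-like cells 4494 CPM, a log2 ratio of -0.06 (-0.10 to -0.01). The compared cells differ in stage: 2115 of the 2299 Car1-GFP cells were in progenitor-named clusters and 184 in late ones, while the 272 marrow cells form 1 cluster that held cells with and without globin. At 1000 UMIs per cell the log2 ratio was -0.22 over all 2299 cells, and -0.07 (-0.16 to 0.02) over the 1648 cells outside cluster 0. It was 0.066 under a coarser clustering, where clusters of 891, 250 and 211 cells could not be named and 1032 Car1-GFP cells entered, so its sign is not settled. Of the 38 members 5 were at least 2-fold higher in Car1-GFP (12.4% of all 11044 measured genes) and 8 were lower (27.5%). The higher ones were Ung (64.9 and 18.0 CPM; log2 ratio 1.85), Prim1 (1.38), Dscc1 (1.14), Chaf1b (1.14) and Rfc2 (1.10). The lower ones were Ccne2 (35.5 and 145 CPM; -2.03), Wdr76 (37.1 and 137 CPM; -1.88) and Uhrf1 (73.4 and 226 CPM; -1.62), then Pola1, Hells, Atad2, Blm and Brip1, between -1.47 and -1.04. These are largely the same Car1-GFP cells as in the ratio of whole libraries. The helicase genes were at 969.2 and 970.8 CPM, with 0 of 8 past 2-fold either way.

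Globin share, the percentage of a cell's UMIs from Hba-a1, Hba-a2, Hbb-bs and Hbb-bt, was used as a measure of erythroid stage that holds no member. No Car1-GFP cell was without globin UMIs, and how much of the low shares is free RNA was not tested, so shares under about 0.75% may not order cells by stage. In Car1-GFP cells thinned to 4500 UMIs, the 38 genes summed to 18.1 ± 8.87 UMIs per cell (SD over 2400 cells), with a median of 16 and a range of 1 to 55. The globin share ran from 0.211% to 54.0%, and 1920 cells (80%) were under 0.75%. The cells were ordered by globin share and cut into 10 deciles of equal size. Over the lowest 8 deciles the mean stayed between 15.1 and 16.5 UMIs. The 9th decile held 25.8 ± 9.41 and the 10th 30.6 ± 10.96 UMIs. Replication mRNA was thus alike over 8 deciles that differ little in globin, and higher where globin exceeded about 0.75%.

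By fixed ranges, cells with 0.5% to 0.6% globin held 15.7 UMIs (976 cells), those with 0.75% to 1% held 20.3 ± 8.003 (102 cells) and those with 1% to 2% held 29.6 ± 8.06 (127 cells). The mean was highest at 4% to 8%, with 33.8 ± 9.06 (73 cells), and 32.5 at 8% to 16% (31 cells). In the 30 cells with 16% globin or more it was 14.5 ± 10.97, with a median of 5998.5 UMIs per cell and 10.6 mitosis UMIs against 24.9 in the range just below. A cluster of 24 globin-rich cells, with a median globin share of 51.1%, held 9.92 UMIs of the 38 genes. Globin takes up much of the 4500 UMIs in such cells, and its part in their low counts was not tested. With globin UMIs left out before thinning, the log2 ratio of the highest over the lowest decile was 1.21 instead of 1.01. That setting also drops cells with fewer than 4500 UMIs besides globin, globin-rich cells among them. The rise therefore cannot be put down to the share of globin alone.

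**Figure D3:**
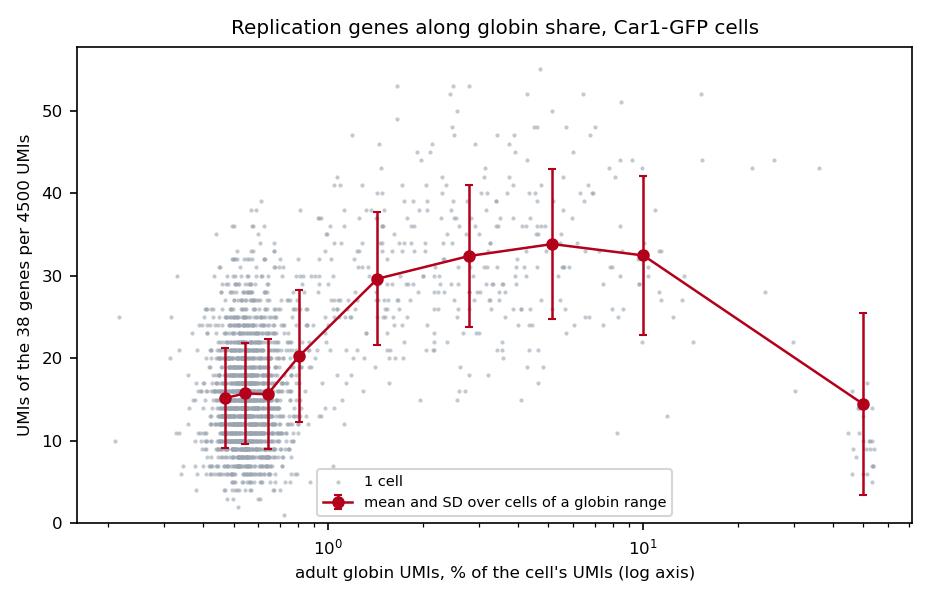
UMIs of the 38 genes per 4500 UMIs in each Car1-GFP cell (grey points) against the percentage of globin UMIs (log axis), with the mean and SD over cells of 9 globin ranges (red). The mean is near 15 up to 0.75% globin, 33.8 at 4% to 8% and 14.5 at 16% or more.

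The 10th decile of the globin share held 2.02 times the replication UMIs of the 1st, a log2 ratio of 1.01 (0.96 to 1.07). Of 37 measured members, 15 were at least 2-fold higher and 1 was lower, against 7.34% and 15.6% of all 6459 measured genes. The median log2 ratio was 0.92 over members and -0.23 over all measured genes. Mitosis genes were higher too, 18 of 23 at 2-fold with a sum ratio of 1.19, and 14 of 46 measured other replication genes were. In cells below the median depth the means of replication UMIs over quintiles of the globin share were 13.2, 12.9, 14.0, 13.8 and 25.03, and in cells above it 17.0, 17.5, 17.8, 19.1 and 30.7. The highest quintile was the deepest of the 5 in the shallower cells (median 9527 UMIs, the others 7095 to 8764) and the shallowest in the deeper cells (21869.5, the others 25401.5 to 27292.5).

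The reductase led the roles, with a summed log2 ratio of 1.88. This came from Rrm2, its regulated small subunit, which averaged between 0.679 and 0.971 UMIs per cell over the lowest 8 deciles, 2.25 in the 9th and 3.44 in the 10th. The counts of 826 and 163 UMIs gave a log2 ratio of 2.34 (2.097 to 2.59). Rrm1, the large subunit, had 239 and 127 UMIs (0.91). Licensing genes followed with a sum of 1.21, among them Ccne2 with 82 and 15 UMIs (2.45; 1.65 to 3.35), Dtl with 156 and 61 (1.35) and Gmnn with 409 and 194 (1.08). Ccne2, lower in Car1-GFP than in marrow, thus had the largest ratio of any member along globin share inside the Car1-GFP library.

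Polymerase and clamp genes had a sum ratio of 0.97. Pola1 had 54 and 13 UMIs (2.05), Fen1 279 and 104 (1.42) and Pcna 355 and 155 (1.196), while Rfc2 had 245 and 203 (0.27; -0.003 to 0.55). Helicase genes had a sum ratio of 0.80, and all 8 were above 0, from Gins2 at 0.53 to Mcm4 at 1.34 (139 and 55 UMIs). Slbp stood at 3.99 UMIs per cell in the 10th decile and 1.45 in the 1st, with 958 and 347 UMIs (1.47). Clspn, the adaptor that signals stalled forks, had 116 and 39 UMIs (1.57), and Tipin 559 and 301 (0.89).

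A few members did not follow. Cdca7 was lower in the 10th decile, at 0.208 UMIs per cell against 0.446 in the 1st (50 and 107 UMIs; -1.10, interval -1.61 to -0.60). Ung had 53 and 64 UMIs (-0.27; -0.83 to 0.28) and Usp1, a deubiquitinase that acts on PCNA, 141 and 151 (-0.10; -0.44 to 0.24). Hells had 60 and 49 UMIs (0.29) and Ubr7 24 and 20 (0.26), both with intervals that include 0. The highest decile was the 10th for 27 members and the 9th for 7, while Cdca7, Ubr7, Usp1 and Brip1 had theirs between the 1st and the 4th. The highest decile of genes in general was not counted.

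**Figure D4:**
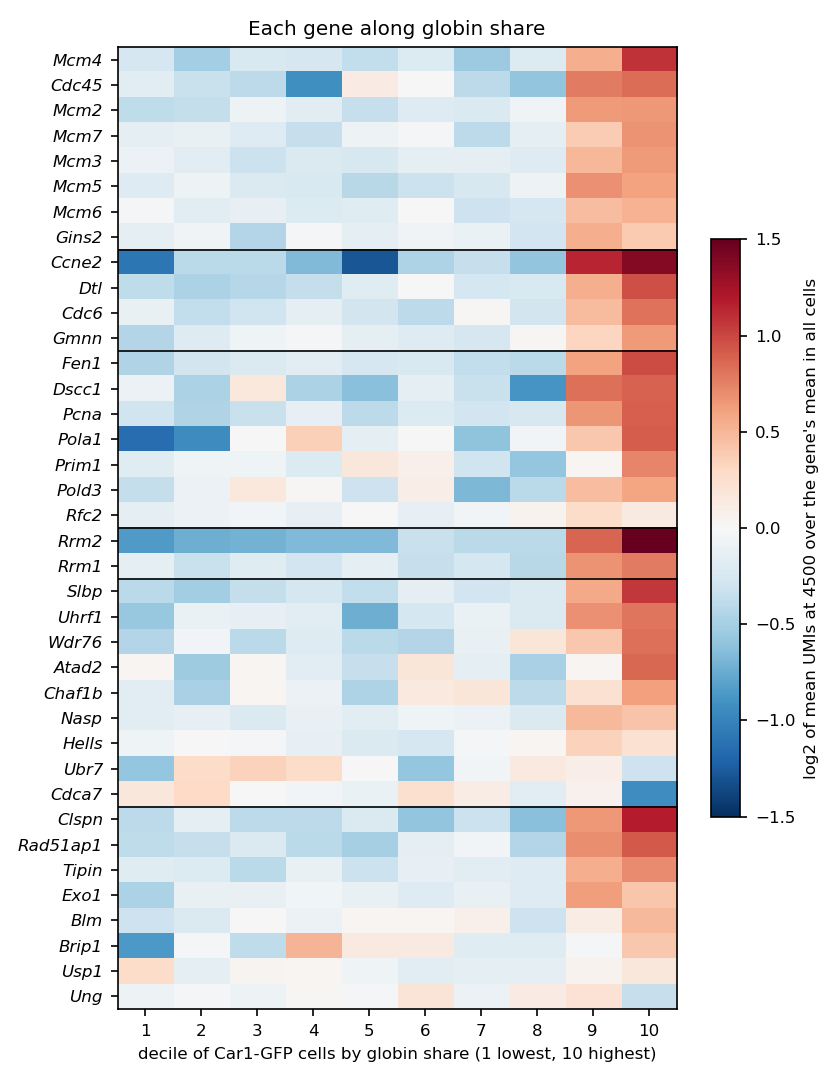
Mean UMIs per 4500 of each of the 38 genes in 10 deciles of the Car1-GFP cells by globin share, as log2 over the gene's mean in all cells, ordered by role (black lines). Rrm2 and Ccne2 are darkest in decile 10, and Cdca7 is blue there.

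Marrow late-erythroid-like cells showed the same direction. Split in tertiles by globin share, 83 cells with a median of 0% globin held 3.27 ± 2.32 replication UMIs per 1000, 82 cells at 0.125% held 4.195 ± 2.74 and 82 cells at 4.18% held 7.10 ± 3.18. The median depths were 3650, 3076 and 1970 UMIs, so the tertile with the most replication mRNA was the shallowest. In the globin range of the 2nd tertile 1865 Car1-GFP cells held 3.62 ± 2.22 per 1000, and in that of the 3rd tertile 477 cells held 6.201 ± 3.13. No Car1-GFP cell fell in the range of the 1st tertile. Every Car1-GFP cell held at least 0.211% globin, and how much of this is free RNA was not tested. Equal globin shares therefore need not mean equal stages in the libraries, nor the empty range a missing stage.

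Gata2, a transcription factor of stem cells, mast cells and early erythroid progenitors, went the other way. Cells with 0 Gata2 UMIs at 4500 held 19.5 ± 9.17 replication UMIs (1737 cells), those with 1 held 15.4 ± 7.08 (453 cells), those with 2 held 13.1 ± 6.33 (144 cells) and those with 3 or more held 11.8 ± 5.08 (66 cells). Each SD was larger than the steps between groups. The log2 ratio of 3 or more over 0 was -0.72 (-0.82 to -0.61). Of the 37 members with a ratio 0 were 2-fold higher, against 11.7% of all 9143 measured genes, and 11 were lower, against 7.58%. Brip1, with 0 UMIs in cells of 3 or more Gata2 UMIs, had no ratio. The mitosis genes had 8 of 23 lower and 0 higher.

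In the cells with 3 or more Gata2 UMIs, single genes rest on few UMIs. Rrm2 had 43 UMIs there, at 145 CPM against 307 CPM in cells without Gata2 (-1.08; -1.55 to -0.65), and Mcm3 had 17, at 57.2 against 130 CPM (-1.18; -1.96 to -0.49). Rad51ap1, a gene of recombination repair, had 6, at 20.2 against 68.1 CPM (-1.75; -3.21 to -0.62). Cdc45 had 1 UMI there. Usp1, Rfc2, Chaf1b, Ubr7 and Cdca7 lay between -0.26 and -0.17, and Blm alone was above 0, at 0.11 with an interval from -0.91 to 0.97. The mean level was highest at 0 Gata2 UMIs for 35 of the 38 genes. How many of all genes were highest there was not counted, so this number cannot be read as particular to the members.

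Gata2 moved with depth: the median UMIs per cell in the 4 groups were 18685, 10187, 6855 and 5861. Cells below the median depth held 17.1, 14.2, 12.4 and 11.9 replication UMIs in the order of Gata2. In cells above it the means were 21.0, 18.1 and, over 19 cells, 18.0. The groups also differed in how many cells came from cluster 0, which had a median of 6802 UMIs per cell and Gata2 at 190 CPM. Its share was 16.4%, 45.5%, 75% and 80.3%. Without that cluster the means were 20.7, 17.3, 15.6 and, over 13 cells, 14.6, and the log2 ratio was -0.50. Of these 13 cells, 8 came from the unnamed Car1-GFP cluster of 101 cells, where Pf4, a megakaryocyte marker, stood at 747 CPM. The last mean thus says little about erythroid-like cells. The 13 cells held 14.3 mitosis UMIs, against 13.6 in cells without Gata2 outside cluster 0. Within cluster 0 the means of replication UMIs were 13.2, 13.1, 12.2 and 11.2. The part of depth and of that cluster in the Gata2 pattern was not tested.

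**Figure D5:**
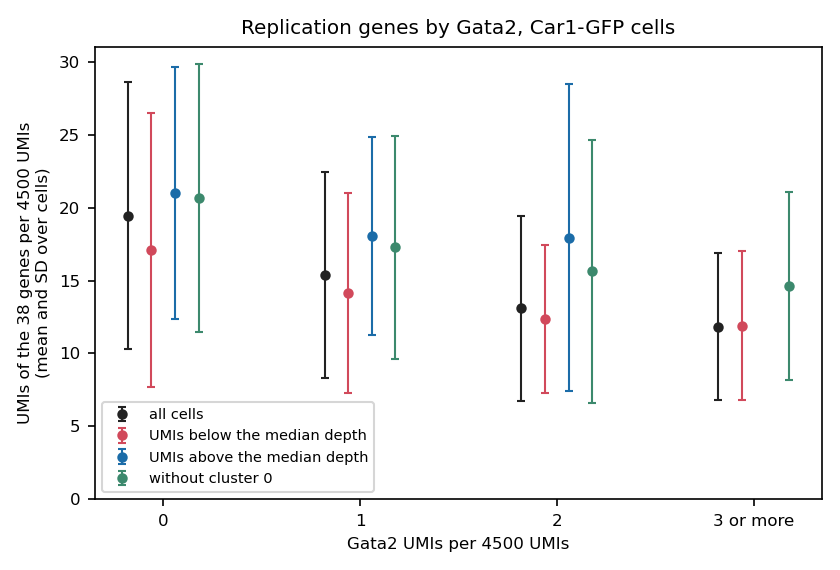
UMIs of the 38 genes per 4500 UMIs by the number of Gata2 UMIs in the same thinned cell, as mean and SD over Car1-GFP cells, for all cells, cells below and above the median depth, and cells outside cluster 0. The means of all cells are 19.5, 15.4, 13.1 and 11.8, and the order is the same in cells below the median depth.

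Gata2 was also read within tertiles of globin share. In the lowest tertile of the globin share, cells without Gata2 held 15.8 and cells with 1 or more Gata2 UMIs 13.9 replication UMIs, in the middle tertile 16.7 and 14.1, and in the highest tertile 25.2 and 16.1. In the highest tertile the cells without Gata2 also had more globin (median 1.25% against 0.676%) and more UMIs (16888 against 6912). In quartiles of depth the means were 12.97, 18.2, 21.5 and 19.7, so the deepest quartile was not the highest.

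Across the 2400 Car1-GFP cells the 38 genes had weak to moderate correlations with one another. Cells share library, depth and free RNA, so correlations are given as a description. The median over members of Spearman's rho with the sum of the other 37 was 0.189. Rrm2 (0.427), Slbp (0.407), Tipin (0.362), Pcna (0.323) and Fen1 (0.298) were highest, and Ubr7 (0.0216), Blm (0.0324) and Cdca7 (0.0427) lowest. Sparse counts limit these values: Slbp, Tipin and Rrm2 averaged 1.91, 1.43 and 1.22 UMIs per cell, and Ubr7, Blm and Cdca7 0.124, 0.155 and 0.397. The sum of members had a rho of 0.674 with that of the other replication genes, 0.394 with the mitosis genes and 0.0977 with replication-dependent histone genes, whose mRNAs mostly lack the poly(A) tail that this chemistry primes on. It had a rho of 0.365 with the cell's UMIs, 0.352 with globin share and -0.275 with Gata2 UMIs.

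Of 4099 other genes compared in Car1-GFP cells, Car2, a carbonic anhydrase, was most like the sum of members (rho 0.530), followed by H2afz (0.508), Fth1 (0.488), Tmem14c (0.464), Cd24a (0.439), Hmgb2 (0.435), Prdx2 (0.432), 2810417H13Rik (0.421), Dek (0.402) and Ctse (0.383). Of 1116 genes compared over 3271 marrow cells, Ptma (0.354), Rpl41 (0.268), Lig1 (0.259), Hist1h2ap (0.256) and Dek (0.252) were most like it, followed among others by Gm10076 (0.237), Rpl39 (0.229) and mt-Co3 (0.223). Dek was named in both libraries.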

How the data were processed

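Single-cell RNA from 2 libraries of sorted marrow cells, each pooled from 3 mice, was analysed from the deposited matrices of UMI counts, raw counts per gene and cell. Per the labels, the libraries used droplet 3' chemistry (10x Genomics, v2), with 10000 cells processed. Cell Ranger 2.1, Seurat 2 and the build mm10 are named in the submitters' processing notes, and their settings are not given in the sources used here. The members and gene lists were chosen with earlier results of these data known. All 38 members are named, and other genes by fixed rules: the 6 further replication genes with the largest absolute library ratios, and the 10 genes per library most correlated with the sum among genes in at least 10% of cells. Some of the latter are not reported here.

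Cells with 500 or more UMIs and under 10% mitochondrial UMIs were kept. That removed 19 of 6458 marrow barcodes and 122 of 2522 Car1-GFP barcodes. Scrublet then removed 171 marrow doublets. It called 9 doublets in Car1-GFP, under 0.5% of cells, and none was removed there. Clusters (Leiden, resolution 1, scanpy 1.11.5, without cell cycle genes) were named from marker lists. Marker names missing from the gene table numbered 5. Thinning drew UMIs without replacement. CPM are UMIs per 1000000 of pooled cells, with exact Poisson intervals, and ratios carry exact binomial intervals (95%). A gene counts as measured with 20 UMIs over both sides, and a count of 0 was replaced by 3 counts. No count model gave a p, since each group is 1 library. The procedure was tested on simulated counts. Alternatives were TMM factors (edgeR 4.0.16), DESeq2 1.42.0 size factors, other depths, clusterings, filters and bins. Pcna and Nasp have annotated processed copies that could share reads, and overlapping transcripts were not separated.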

Additional observations from a re-analysis of the deposited data

How the results depend on the processing

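Of 57 alternatives over 8 results, 37 stayed within the counting interval of the first value or within 1.5 times the count, 19 moved and 1 changed sign; the causes were not tested. All values are log2 ratios except counts. The library ratio of the summed members, 0.73, was 1.12 with TMM factors, 1.11 with DESeq2 size factors and 0.67 without Slbp. It was 0.48 with cells weighted equally at 1000 UMIs, a setting that also drops marrow cells under that depth. The members stood at 1376 CPM in those marrow cells and 3052 CPM in the marrow cells kept. The count of members 2-fold lower, 3, was 0 with TMM factors and 0 with DESeq2 size factors. These factors shift every gene alike, and the share of all genes was not counted with them. The ratio of marrow erythroid-like over other marrow cells, 0.79, was 1.33 at 590 UMIs, 0.62 at 2000 UMIs and 0.94 with doublets kept. The ratio of GMP-like over maturing-neutrophil-like cells, 1.66, was 2.43 at 590 UMIs. The ratio of Car1-GFP over marrow erythroid-like cells, -0.22, was -0.33 at 590 UMIs, -0.0687 without cluster 0 and 0.066 at Leiden resolution 0.5. The ratio of the highest over the lowest globin decile, 1.01, was 1.21 without globin UMIs, 0.90 over quintiles and 0.89 without cluster 0. The Gata2 ratio, -0.72, was -0.41 at 10000 UMIs, -0.57 under 5% mitochondrial UMIs, -0.42 for 1 or more Gata2 UMIs and -0.50 without cluster 0. Leaving out cluster 0 was chosen after seeing the data. The maturing-neutrophil ratio at 2000 UMIs and the Gata2 ratio at 1000 UMIs were not run, since too few cells remained. No paired analysis was possible because each group is 1 library. At these depths a count of 0 allows up to 0.361 CPM in marrow and 0.0701 CPM in Car1-GFP cells.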
